A study of Bos taurus with 30 samples.

Results

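The insulin-like growth factor binding proteins (IGFBPs) are a family of secreted carriers of the growth factors IGF1 and IGF2. The array carried 7 probes for 6 of these genes, IGFBP1 to IGFBP6, out of 13824 probes and 8073 named genes. They were taken by symbol from the platform annotation, which gave no probe the symbol IGFBP7. IGFBP4 had 2 probes, which carried equally many values, and the one printed first represents the gene. Every member had a value on all 60 of its spots, 2 adjacent spots on each of 30 arrays, so none was lost to a filter on missing values.

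The arrays compared the 2 kinds of tissue that line the uterus of pregnant cows. Caruncles are the gland-free sites where the placenta attaches, and intercaruncular endometrium is the glandular tissue between them. Each array held both tissues of 1 animal in 2 colours, and each animal had 2 arrays. The groups are 3 kinds of pregnancy, with 5 cows each: from artificial insemination (AI), from transfer of an embryo after in vitro fertilisation (IVF-ET), and from somatic cell nuclear transfer, or cloning (SCNT). The labels used here give neither the day of pregnancy nor the age or breed of the cows.

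IGFBPs hold IGFs in body fluids and at the cell surface, and so both prolong their life and keep them from the IGF1 receptor. Proteases that cleave the carriers release the IGFs again. IGFBP6 is the member that prefers IGF2 to IGF1. IGFBP1 is a well-known product of the uterine lining in pregnancy, made by decidualised stroma in primates and by the luminal epithelium in ruminants. IGFBP3 is the main carrier in blood serum, where it forms a complex with IGFALS. No sequence is shown, since the tables used here hold none for these probes or genes.

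The values compare the tissues within a cow on a logarithmic scale, read here as log2. Neither the log base nor the tissue in the numerator is stated in the labels used here, so values are described by their side of 0, and each fold change rests on the log2 reading. The ratios were read as already turned to the tissues on both arrays of an animal, and the values below rest on that reading unless another is named. Over all probes, the arrays of an animal did not agree on the tissue ratio: both lay on the same side of 0 in 48.7% of cases, close to an even split. The members stood between 7 of 14 animals (IGFBP4 and IGFBP5) and 12 of 14 (IGFBP1), with IGFBP6 at 11. IVF-ET replicate 3 had the same dye orientation on both arrays and opposite values on them. It was left out, which leaves 14 animals. The sign of the AI group relative to the others is not settled, so AI values are printed as deposited, and each difference from AI that passed is also given with the AI sign turned. Turning it changes the sign of every AI mean and nothing in the SCNT or IVF-ET means. The sign was turned in all AI animals together, and single AI animals were not turned. The arrays held 26744 to 27643 spots with a value, and the number of animals limits the precision.

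IGFBP6 lay on the negative side in all 9 SCNT and IVF-ET animals. The 5 SCNT animals had log2 ratios of -1.70, -1.15, -0.20, -0.93 and -2.80. The 4 IVF-ET animals, replicates 1, 2, 4 and 5, had -0.30, -0.33, -0.31 and -0.81. The 5 AI animals had 0.27, 0.19, 1.09, 0.23 and -0.24, with only replicate 5 below 0. The SCNT values were thus the lowest and the most scattered, and SCNT replicate 3 alone lay above all 4 IVF-ET animals. Of all probes, 2.12% were negative in every one of these 9 animals. Shares for counts on the positive side of these animals are not given here.

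Single arrays gave the same picture for IGFBP6. Of 18 arrays of the SCNT and IVF-ET animals, 17 were negative, and the exception stood at 0.016 in SCNT replicate 3. The 2 arrays of the other SCNT animals read -1.18 and -2.21, -0.70 and -1.60, -0.73 and -1.13, and -2.32 and -3.29. In all 5 SCNT animals the array with Cy5 on the intercaruncular RNA was the lower one. In AI replicates 1 and 2 the arrays opposed each other, at -0.85 and 1.40 and at -0.30 and 0.69. AI replicate 3 was positive on both arrays, at 0.83 and 1.35. The left-out IVF-ET replicate 3 read 0.97 and -1.17.

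**Figure D1:**
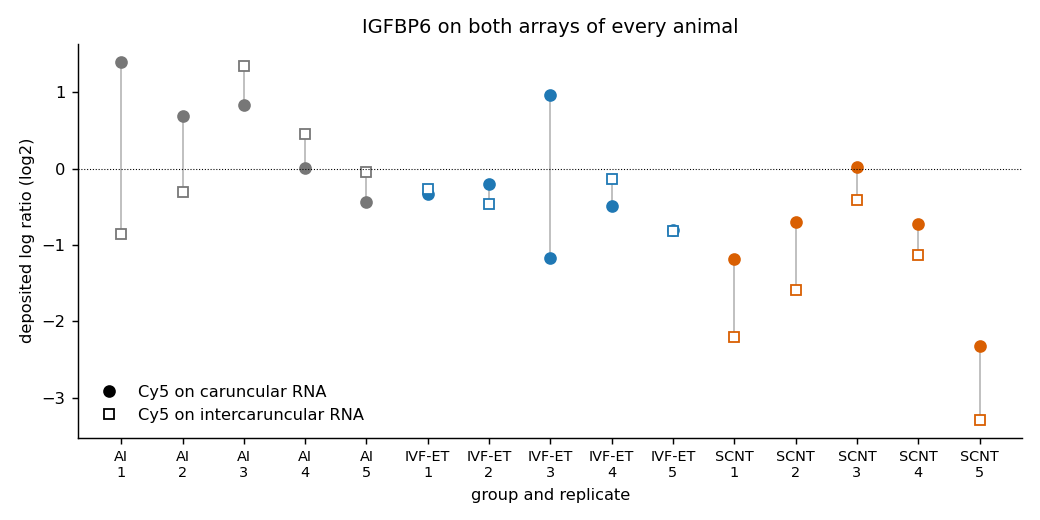
IGFBP6 log2 ratio (vertical axis) on both arrays of each of the 15 animals (horizontal axis), coloured by group, with a grey line joining the arrays of an animal. Filled circles have Cy5 on caruncular RNA and open squares Cy5 on intercaruncular RNA. The SCNT arrays lie lowest, down to -3.29, and only 1 of 18 SCNT and IVF-ET arrays of the animals used is above 0. IVF-ET 3, with both arrays of 1 orientation, was left out of the tests.

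The mean IGFBP6 ratio of the SCNT animals was -1.35 ± 0.97 (SD, n = 5), a 2.56-fold difference between the tissues. It passed the test over all probes (limma, SE 0.26, adjusted p = 0.0143, Benjamini-Hochberg over 13818 probes). Of all probes, 1.82% passed in SCNT animals, 1.06% on the negative side. IGFBP6 was the only 1 of the 7 IGFBP probes to do so. The call was lost without SCNT replicate 1 (-1.27, limma adjusted p = 0.0780), when the SCNT group was fitted alone (adjusted p = 0.161), and when IVF-ET replicate 3 was kept with its second array turned (adjusted p = 0.0950). With the first array of that animal turned instead, the call was kept. Read as dye ratios instead of tissue ratios, the mean turned to 0.37 (limma adjusted p = 0.427).

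In IVF-ET animals the mean of IGFBP6 was -0.44 ± 0.25 (SD, n = 4), and in AI animals it was 0.31 ± 0.48 (SD, n = 5). Neither passed (limma adjusted p = 0.782 and 1.000). In both groups 0 of 13818 probes passed (0%), with 1099 and 604 at an unadjusted p under 0.05. IGFBP6 was not among these. The test uses a spread shared by the 3 groups, which was widest in SCNT (SD 0.97), whereas all 4 IVF-ET animals lay between -0.81 and -0.30. The shared spread is thus narrower than that of the SCNT animals alone, on which their p-value above does not rest. Fitted alone, the SCNT mean did not pass (limma adjusted p = 0.161).

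IGFBP6 differed between SCNT and AI animals by -1.66 ± 0.36 (SE, limma adjusted p = 0.0418), a comparison in which 0.948% of all probes passed. The ranges met at a single point, since SCNT replicate 3 (-0.20) lay just above AI replicate 5 (-0.24). With the AI sign turned the difference was -1.05 and did not pass (limma adjusted p = 0.763). Read as dye ratios it was 0.18 (limma adjusted p = 1.000). With the pair of groups fitted alone, or IVF-ET replicate 3 kept with its second array turned, it stayed at -1.66 but lost the call (limma adjusted p = 0.120 and 0.179). The call was also lost on leaving out any one of 10 animals, namely SCNT 1, 2 or 4, IVF-ET 1, 2, 4 or 5, or AI 2, 3 or 4. The difference was then -1.77 to -1.47 and the limma adjusted p 0.0531 to 0.137.

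Between SCNT and IVF-ET animals IGFBP6 differed by -0.92 ± 0.38 (SE, limma adjusted p = 0.915, unadjusted 0.0298), and no probe passed (0 of 13818, 0%, with 610 at an unadjusted p under 0.05). Between IVF-ET and AI animals it differed by -0.75 ± 0.38 (SE, limma adjusted p = 0.644), where 0.0579% of probes passed. All 4 IVF-ET animals lay below all 5 AI animals as deposited, which held for 3.34% of probes without regard to direction. With the AI sign turned, the difference was -0.13. The order of the IGFBP6 means ran SCNT, IVF-ET, AI from low to high under either sign, and neighbours in that order did not pass the test of their difference. Read as dye ratios, the means were 0.37 in SCNT, -0.02 in IVF-ET and 0.19 in AI animals, so SCNT was then the highest.

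As tissue ratios, IGFBP1 values lay on the other side. The SCNT animals had log2 ratios of -0.0029, 0.45, 0.98, 0.53 and 1.01, and the IVF-ET animals 1.71, 0.11, 0.09 and 0.90. Thus 8 of 9 were positive, with SCNT replicate 1 just below 0. The AI animals spread from -1.05 to 1.16, at -0.98, -0.27, -1.05, 0.45 and 1.16, so AI held both the lowest ratios and one of the highest. Group means were 0.59 ± 0.42 (SD, n = 5) in SCNT, 0.70 ± 0.77 (SD, n = 4) in IVF-ET and -0.14 ± 0.95 (SD, n = 5) in AI. None passed (limma adjusted p = 0.345, 0.600 and 1.000). Of all members, IGFBP1 had both arrays on the same side of 0 in the most animals, among them all 5 AI animals. The sizes differed between arrays, at -0.13 and -1.82 in AI replicate 1 and -0.39 and -1.70 in AI replicate 3. In AI replicate 5 they were 1.55 and 0.77.

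IGFBP3 lay on the side of IGFBP6, with a smaller mean in SCNT animals and a like mean in IVF-ET animals. All 5 SCNT animals were negative, at -0.70, -0.11, -0.49, -0.81 and -0.49. Their mean of -0.52 ± 0.27 (SD, n = 5) did not pass (limma adjusted p = 0.0964, unadjusted 0.00348). The IVF-ET animals had -0.01, -1.12, -0.58 and 0.0019, so replicates 2 and 4 carried their mean of -0.43 ± 0.54 (SD, n = 4, limma adjusted p = 0.530). The AI animals straddled 0, from -0.30 to 0.40 with a mean of 0.07. IGFBP3 differed from AI by -0.59 ± 0.21 (SE) in SCNT and by -0.50 ± 0.23 (SE) in IVF-ET, and neither passed (limma adjusted p = 0.225 and 0.587). Turning the AI sign made these -0.45 and -0.36 and did not pass either (limma adjusted p = 0.765 and 0.999).

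IGFBP2, a carrier that is abundant in fetal and reproductive tissues, was set apart by 1 animal. SCNT replicate 5 had -3.57, with arrays at -3.89 and -3.25, and 71 probes lay lower in that animal. The other SCNT animals had -0.56, 0.18, -0.06 and -0.09, and the IVF-ET animals -0.09, 0.02, -0.34 and 0.09. The AI animals had -0.35, 0.30, 1.09, 0.90 and -0.29. The SCNT mean of -0.82 ± 1.56 (SD, n = 5, limma adjusted p = 0.340) therefore describes no typical animal. SCNT replicate 5 was also the animal with the lowest IGFBP6. In it 144 probes lay lower than IGFBP6 at -2.80, against 10 in SCNT replicate 1 at -1.70. Low ratios were thus more common over all probes in SCNT replicate 5. With arrays scaled to 1 spread, the SCNT mean of IGFBP2 was -0.56 (limma adjusted p = 0.347).

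IGFBP5, which binds to extracellular matrix, kept small ratios. The SCNT animals had 0.06, -0.35, -0.08, -0.56 and -0.27, with a mean of -0.24 ± 0.24 (SD, n = 5, limma adjusted p = 0.240). The means of -0.08 in IVF-ET and 0.04 in AI animals were within 1 SD of 0. The 2 probes of IGFBP4, a carrier that mainly inhibits IGF action, gave different values. The first had means of -0.03, -0.23 and 0.03 in SCNT, IVF-ET and AI animals, and the other -0.31, -0.49 and -0.02. Only the other probe was negative in all 4 IVF-ET animals, from -0.74 to -0.28 (limma adjusted p = 0.351). The value of IGFBP4 thus depends on the probe.

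**Figure D2:**
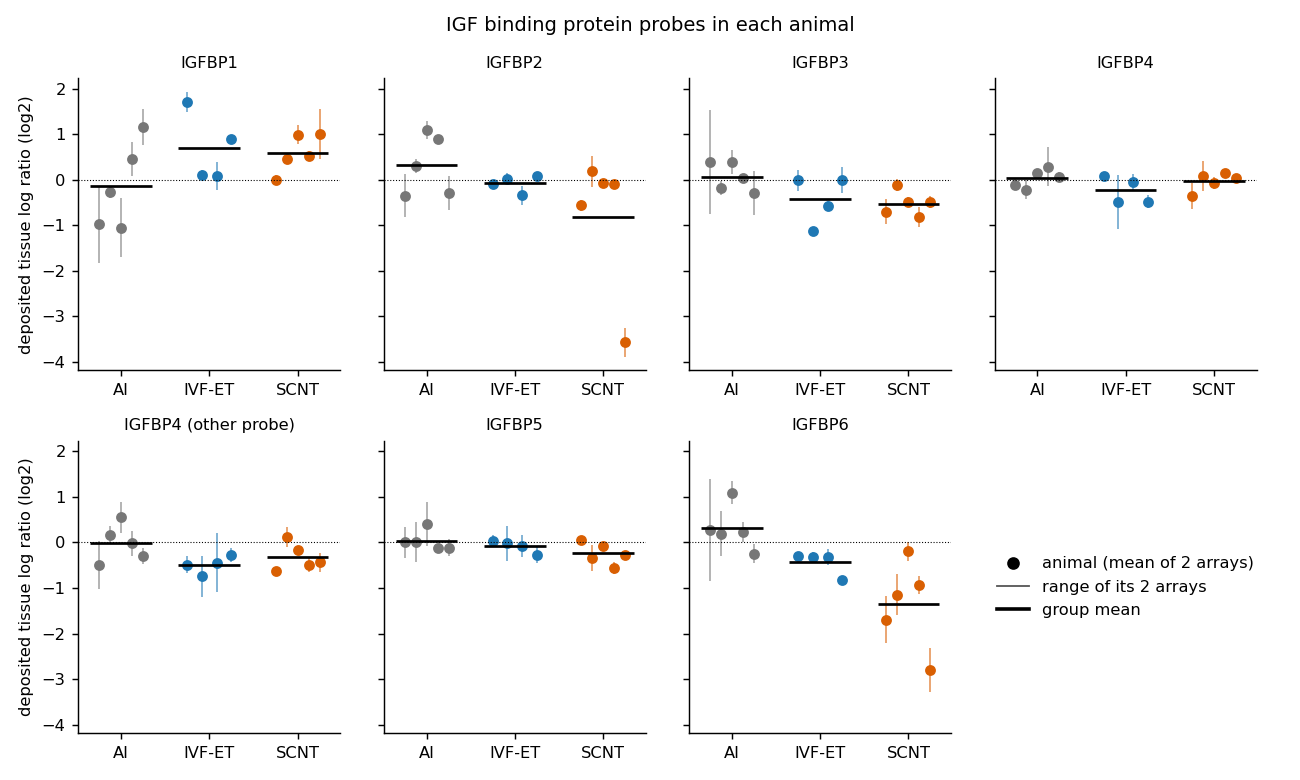
Log2 tissue ratio (vertical axis) of the 7 IGFBP probes, 1 panel each, in AI, IVF-ET and SCNT animals (horizontal axis). Points are animals (mean of 2 arrays), thin lines span the 2 arrays and black bars are group means. IGFBP6 in SCNT animals lies at -0.20 to -2.80, IGFBP1 is at -0.0029 or above in SCNT and IVF-ET animals, and the SCNT mean of IGFBP2 is pulled by 1 animal at -3.57.

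Across the family, IGFBP6 passed in SCNT animals and in their difference from AI, and no other member passed in any comparison. At an unadjusted p under 0.05, 4 of 7 probes stood out in SCNT animals (IGFBP3, the other IGFBP4 probe, IGFBP5 and IGFBP6, all negative) beside 14.8% of all probes. In IVF-ET animals there were 3 (IGFBP1 positive, IGFBP3 and the other IGFBP4 probe negative) beside 7.95% of all probes, and in AI animals 0 beside 4.37%. The median of the 7 probes was -0.31 in SCNT, -0.23 in IVF-ET and 0.04 in AI animals, against 0.00 over all probes in SCNT and IVF-ET animals and 0.01 in AI animals.

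The reading of the ratio bears on every member. Under the dye-ratio reading, none of the 7 probes passed in any comparison (limma), and most means came near 0. IGFBP1 had a mean of 0.02 in SCNT and 0.12 in IVF-ET animals, and IGFBP3 had -0.03 and 0.14. IGFBP5 (0.02 in SCNT, 0.17 in IVF-ET) and the other IGFBP4 probe (0.04 in both) changed sign. So did IGFBP3 in IVF-ET animals and the first IGFBP4 probe (0.01 in SCNT). In IVF-ET animals that probe went from -0.23 as tissue ratio to 0.23. IGFBP2 had -0.10 in SCNT animals. IGFBP6 was positive in all 5 SCNT animals, from 0.20 to 0.52, and in 2 of 4 IVF-ET animals.

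Comparing members within an animal takes off what 2 probes share on an array. Over the 9 SCNT and IVF-ET animals, IGFBP6 lay below IGFBP1 by a mean log2 difference of -1.59 ± 1.00 (SD), in 9 of 9 animals. It lay below IGFBP5 by -0.78 ± 0.82 (SD), also in 9 of 9. Both gave the smallest p that an exact sign-flip permutation test allows with 9 animals (two-sided, p = 0.00391, adjusted over 5 pairs 0.00977). IGFBP6 was set against the others with earlier results of these data known. The p-values of the pairs do not allow for that choice. The difference from IGFBP4 was -0.83 ± 0.92 (SD, lower in 8 of 9, exact permutation p = 0.0117, adjusted 0.0195). With the other IGFBP4 probe it was -0.56 and did not pass (lower in 6 of 9, exact permutation p = 0.102). The dye-ratio reading of these pairs was added after seeing the data. Under it the differences from IGFBP1, IGFBP4 and IGFBP5 turned to 0.13, 0.087 and 0.11 and did not pass (exact permutation p = 0.309, 0.527 and 0.344).

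IGFBP6 was not separated from the remaining members. Its difference from IGFBP3 was -0.47 ± 0.93 (SD, lower in 6 of 9, exact permutation p = 0.168, adjusted 0.168). Its difference from IGFBP2 was -0.46 ± 0.66 (SD, lower in 7 of 9, exact permutation p = 0.0703, adjusted 0.0879). Without SCNT replicate 5, whose IGFBP2 was lower than its IGFBP6, the latter became -0.61 (exact permutation p = 0.0156, adjusted 0.0260). Without that animal the difference from IGFBP3 was -0.24 (exact permutation p = 0.336). The difference from IGFBP2 was 0.29 read as dye ratios (exact permutation p = 0.0156, adjusted 0.0781).

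The AI animals showed another order as deposited. IGFBP6 minus IGFBP1 ran from -1.40 to 2.14 there and was positive in 3 of 5. Over all 14 animals as deposited, the differences from IGFBP1, IGFBP4 and IGFBP5 shrank to -0.86, -0.43 and -0.40 and no longer passed (permutation p = 0.05005, adjusted 0.125; 0.0997, adjusted 0.125; and 0.0924, adjusted 0.125). With the AI sign turned they were -1.18, -0.63 and -0.60 and passed (permutation adjusted p = 0.00651, 0.00651 and 0.00183). IGFBP6 was the lowest of the 6 genes in 3 of 5 SCNT and 2 of 4 IVF-ET animals, and in 0 of 5 AI animals as deposited or 1 of 5 with the AI sign turned. As dye ratios, it was the lowest in 0 SCNT, 0 IVF-ET and 1 AI animal.

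**Figure D3:**
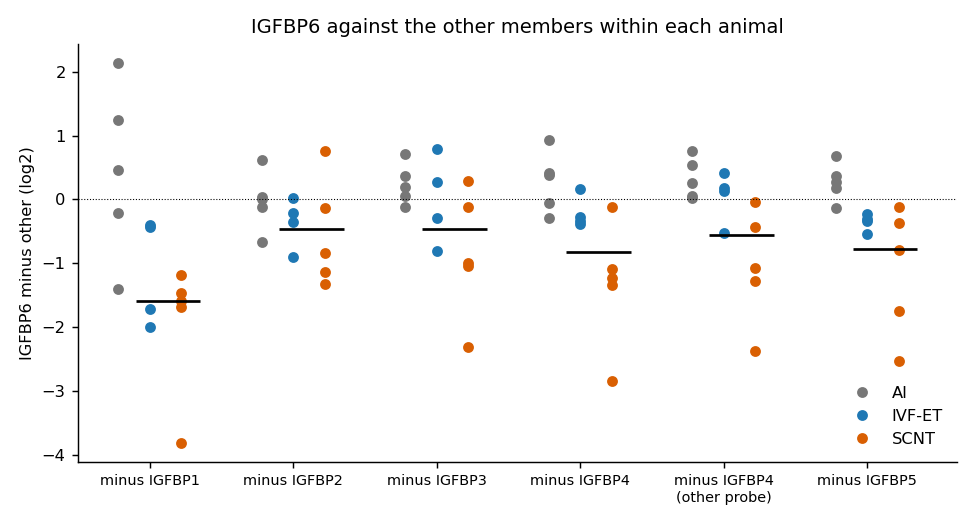
Within-animal difference between the log2 ratio of IGFBP6 and that of each other IGFBP probe (vertical axis) for AI, IVF-ET and SCNT animals; points are animals and black bars the mean over the 9 animals of the SCNT and IVF-ET groups. All 9 differences from IGFBP1 and from IGFBP5 lie below 0, with means of -1.59 and -0.78 as tissue ratios (0.13 and 0.11 read as dye ratios). As deposited, the AI points lie mostly above 0 for the differences from IGFBP3 and IGFBP5.

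IGFBP1 and IGFBP6 took opposite sides of 0 in 12 of 14 animals. This count does not depend on the sign given to an animal, since turning it turns both genes. Opposite sides were found in 4 of 5 SCNT, 4 of 4 IVF-ET and 4 of 5 AI animals, or in 4, 3 and 4 read as dye ratios. Of all other probes, 4.41% opposed IGFBP6 in at least as many animals. IGFBP3 took the side of IGFBP6 in 12 animals, which 3.35% of probes did at least as often. The other IGFBP4 probe and IGFBP5 took its side in 11 (7.59% of probes did so at least as often), IGFBP2 in 10 and the first IGFBP4 probe in 7. In the RefSeq gene table of assembly ARS-UCD2.0, IGFBP1 and IGFBP3 are neighbours with 0 protein-coding genes between them, and so are IGFBP2 and IGFBP5. As tissue ratios, the neighbours IGFBP1 and IGFBP3 were on opposite sides of 0 in the SCNT and IVF-ET means, none of which passed by limma. Read as dye ratios, their IVF-ET means were 0.12 and 0.14, on the same side.

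**Figure D4:**
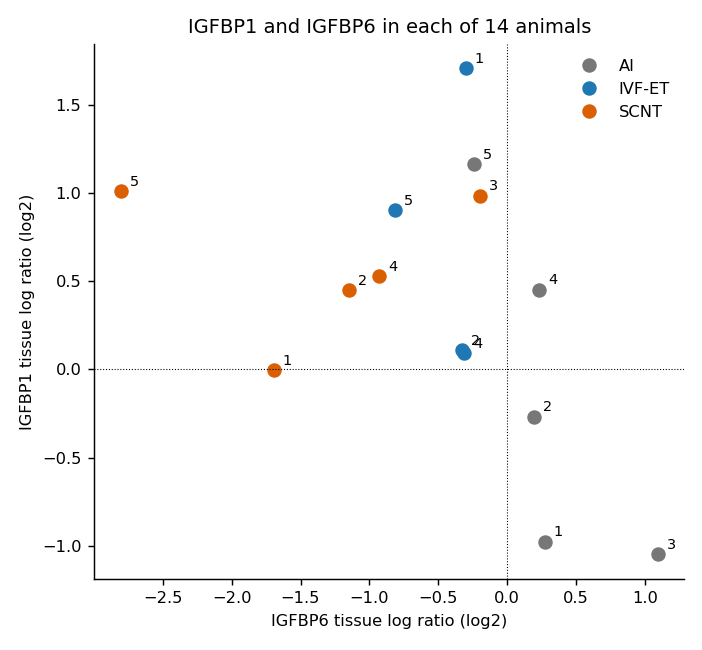
Log2 tissue ratio of IGFBP1 (vertical axis) against IGFBP6 (horizontal axis) in the 14 animals, coloured by group and numbered by replicate. Of these, 12 lie upper left or lower right of the 0 lines, where the genes have opposite signs. SCNT 1, with IGFBP1 at -0.0029, and AI 4 do not.

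The gene most like IGFBP6 over the 14 animals was LGALS1, which encodes the lectin galectin-1 (Pearson r = 0.971, among 8066 genes compared). Its log2 ratio averaged -0.77 in SCNT, -0.27 in IVF-ET and 0.27 in AI animals. MXRA8, a matrix remodelling-associated membrane protein, followed (r = 0.951), then TMEM250 (0.943), AEBP1, a collagen-binding protein (0.924), and SELENOW, a selenoprotein (0.920). ANXA6, RRAS and SEPTIN2 all had an r of 0.915. Spearman's rho for these 8 genes ran from 0.723 (RRAS) to 0.925 (LGALS1). Over the 9 SCNT and IVF-ET animals alone, r was 0.958 for LGALS1 and 0.967 for MXRA8. The points of each correlation share arrays, groups and the array-wide spread, so they are descriptions without a test.

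The highest r of each other member was below that of LGALS1 with IGFBP6. For IGFBP1 the highest r were those of OCIAD2 (0.869) and SACM1L (0.850). For IGFBP3 they were COL1A1, a chain of type I collagen (0.779), and MARCKSL1 (0.767), and for IGFBP5 MOB3B (0.831) and CHMP4A (0.798). For IGFBP4 they were SNAPIN (0.805) and COPRS (0.794). IRF1 and RPS6KA2 reached 0.951 with IGFBP2, where SCNT replicate 5 stood far from the rest. Their Spearman's rho was 0.705 and 0.701. Over the 9 SCNT and IVF-ET animals alone, r with IGFBP3 was lower, at 0.444 for COL1A1 and 0.643 for MARCKSL1. For the other genes of this paragraph that r was 0.738 (COPRS) to 0.976 (RPS6KA2). Each r over all 14 animals takes the AI sign as deposited.

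Among the ligands and receptors of the pathway, 7 of 8 listed genes were measured. In SCNT animals, where 1.82% of all probes passed, 1 of them did. This was IGF2, the fetal growth factor that IGFBP6 prefers. Its log2 ratio was -0.80, -0.58, -0.79, -0.80 and -0.96 in the SCNT animals. The IVF-ET animals had -0.64, 0.08, -0.03 and 0.05, and the AI animals -0.31, 0.16, 0.76, 0.01 and -0.29. All 5 SCNT values were narrowly grouped, and 4 of them lay below every IVF-ET value. The SCNT mean was -0.78 ± 0.14 (SE, limma adjusted p = 0.0117). Its difference from AI was -0.85 ± 0.19 (SE, limma adjusted p = 0.0477), and that from IVF-ET was -0.65 ± 0.20 (SE, adjusted p = 0.915). With the AI sign turned, the difference from AI was -0.72 and did not pass (limma adjusted p = 0.690). The SCNT animals thus had both IGF2 and IGFBP6 on the negative side in 5 of 5. Both means passed on that side, so the shared side adds little to those calls. A link between the 2 genes was not tested. The IGF2 call in SCNT animals, and those of listed genes below, depended on which animals were fitted. Leaving out SCNT replicate 1 brought the number of all probes passing in SCNT animals from 252 to 2. Adding the omitted IVF-ET animal, with its later array reversed in sign, brought this number to 0. The same fit left 0 probes passing in SCNT minus AI. With the first array of that animal reversed instead, the number passing in SCNT animals was not reduced. The IGF2 call under that setting is not given here.

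IGF1 gave -0.73, -0.35, 0.06, -0.11 and 0.31 in SCNT animals and -0.73, -0.66, -0.36 and -0.09 in IVF-ET animals. The IVF-ET mean of -0.46 ± 0.17 (SE) did not pass (limma adjusted p = 0.505). IGF1R, the receptor that signals for both ligands, was positive in 8 of 9 SCNT and IVF-ET animals. SCNT replicate 5 was the exception, at -1.34, and the other SCNT animals had 0.05 to 0.67. IGF2R, which clears IGF2 from the cell surface, ran from -0.33 to 0.70 in the same 9 animals with no side in common. INSR, INS and IGFALS did not pass either, with SCNT means of 0.09, 0.12 and -0.07.

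Proteases that cleave IGFBPs, and their regulators, were next. Of 15 measured of 23 listed genes, 2 passed in SCNT animals, both negative, beside 1.06% of all probes on that side. MMP2, a gelatinase that cleaves several IGFBPs, had a mean of -0.86 ± 0.15 (SE, limma adjusted p = 0.0117) and was negative in 9 of 9 SCNT and IVF-ET animals. ADAM9, a membrane protease, had -0.47 ± 0.09 (SE, limma adjusted p = 0.0135). Against AI, MMP2 was lower by -1.24 ± 0.22 and HTRA1, a secreted serine protease, by -0.80 ± 0.16 (SE, limma adjusted p = 0.0157 and 0.0339). Turning the AI sign made these -0.49 and -0.01, and neither passed (limma adjusted p = 0.763 and 0.994). TIMP1, an inhibitor of matrix metalloproteinases, was negative in 9 of 9, but its SCNT mean of -0.80 ± 0.24 (SE) did not pass (limma adjusted p = 0.100). The list had a median of -0.20 in SCNT, -0.07 in IVF-ET and 0.07 in AI animals.

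Of 16 measured of 34 listed signal transducers, 1 passed in SCNT animals, beside 1.82% of all probes. This was SHC1, an adaptor of the receptor, at -0.64 ± 0.15 (SE, limma adjusted p = 0.0373). The median of that list was -0.01 in SCNT animals. Of 9 measured of 15 listed binding partners, 0 passed by limma. In SCNT animals 1 had an unadjusted p under 0.05, beside 14.8% of all probes. LRP1, an endocytic receptor that binds IGFBP3, was negative in 9 of 9 with an SCNT mean of -0.83 ± 0.21 (SE, limma adjusted p = 0.0587).

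Of 6 measured of 18 listed related proteins and IGF2 mRNA binders, CCN2 alone passed. It lay on the positive side, where 106 of 13818 probes passed in SCNT animals. CCN2, or connective tissue growth factor, shares the amino-terminal domain of the IGFBPs. Its log2 ratio was 0.94 to 1.77 in SCNT, 0.66 to 1.68 in IVF-ET and -1.02 to 0.71 in AI animals, so all 9 SCNT and IVF-ET animals were positive. The share of all probes positive in all 9 is not given here. The SCNT mean of CCN2 was 1.18 ± 0.20 (SE, limma adjusted p = 0.0117). The difference from AI was 1.67 ± 0.29 in SCNT and 1.75 ± 0.30 in IVF-ET animals (SE, limma adjusted p = 0.0157 and 0.0497). Turning the AI sign made these 0.69 and 0.78, and neither passed (limma adjusted p = 0.763 and 0.999). No gene of the 5 pathway lists passed in the IVF-ET mean, the AI mean or SCNT minus IVF-ET. Both differences from AI share the AI animals. No probe passed in either of them, or in SCNT animals, once the omitted IVF-ET animal was added with its later array reversed in sign. With its first array reversed instead, the number passing in SCNT animals was not reduced, and 33 probes passed in IVF-ET minus AI. In SCNT animals 0 probes passed read as dye ratios, and IGF2 then had a mean of 0.06, MMP2 0.31, ADAM9 -0.07, SHC1 -0.20 and CCN2 -0.12.

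Lists of stromal and epithelial markers also had medians away from 0 in SCNT and IVF-ET animals. The list for fibroblasts and their matrix held 20 genes, of which 14 were measured. In SCNT animals 5 of them were negative and passed (COL1A1, COL1A2, COL3A1, COL6A3 and THY1), beside 1.06% of all probes. The list median ranged from -0.74 to -0.24 over SCNT, from -0.66 to -0.20 over IVF-ET and from -0.03 to 0.50 over AI animals as deposited. Turning the AI sign would turn the sign of the AI medians of every list. No list median is given for the dye-ratio reading. Of 17 measured of 20 epithelial genes, 4 passed on the positive side in SCNT animals (OCLN, DSP, CGN and EZR). Of all probes, 106 of 13818 did so. The SCNT calls of both lists were lost when the omitted IVF-ET animal was added with its later array reversed in sign. With its first array reversed instead, the number of all probes passing in SCNT animals was not reduced. Without SCNT replicate 1, only 2 of all probes passed in SCNT animals. The epithelial list median ranged from 0.18 to 0.54, from 0.33 to 0.81 and from -0.57 to 0.23 in the same order of groups. The part of either in the IGFBP results was not tested. In bulk tissue, fewer cells of a type and less RNA per cell cannot be told apart.

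In every SCNT and IVF-ET animal IGFBP6 and the stromal median were both negative. Both were positive in AI replicates 1 to 4 and negative in AI replicate 5. SCNT replicates 3 and 5 had the same stromal median of -0.24, with the highest and the lowest IGFBP6 of their group. SCNT replicate 5 also had the lowest epithelial median of the SCNT animals (0.18). A link between IGFBP6 and either list was not tested. How many of all probes take the side of the stromal median as often was not counted, so these sides do not set IGFBP6 apart. The markers of uterine gland (5 measured), smooth muscle (8), endothelium (8), leukocytes (12), red blood cells (2) and trophoblast (9) had 0 genes that passed by limma. At an unadjusted p under 0.05 in SCNT animals there were, in this order, 2, 1, 0, 1, 0 and 3, beside 14.8% of all probes. Trophoblast markers nevertheless had a median of -1.69 in SCNT replicate 3, against -0.52 to 0.14 in the other SCNT animals, and their part in the IGFBP values was not tested. The gland median ranged from -0.06 to 0.53 in SCNT, from -0.12 to 0.65 in IVF-ET and from -0.42 to 0.06 in AI animals. These ratios carry no absolute level, so they do not show whether the markers are present in either tissue.

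**Figure D5:**
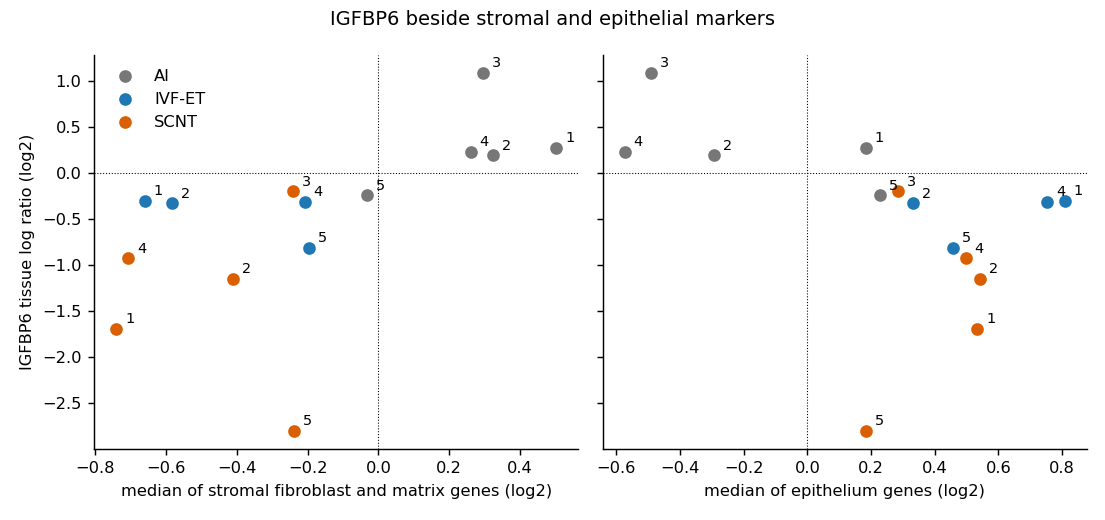
IGFBP6 log2 tissue ratio (vertical axis) against the median log2 ratio of 14 stromal (left) and 17 epithelial (right) marker genes (horizontal axes) in the 14 animals, coloured by group and numbered by replicate. SCNT and IVF-ET animals lie at negative stromal and positive epithelial medians. SCNT 5, at -2.80 for IGFBP6, has medians of -0.24 (stromal) and 0.18 (epithelial).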

How the data were processed

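Per array, the authors deposited a normalised log ratio of both channels for each spot, taken here as log2. Image analysis, normalisation method, log base and direction are not given in the sources used here. Dyes and groups come from the labels. In each of 13824 probes 2 adjacent spots were averaged, and arrays were centred on their median. The dye effect per probe was subtracted and each animal's 2 arrays were averaged. limma 3.58.1 in R 4.3.3 (lmFit, eBayes) fitted a mean per group with 1 shared spread per probe over 13818 probes of 14 animals and 28 arrays. Tests were two-sided, Benjamini-Hochberg adjusted over all probes, with a threshold of 0.05. The script was tested on simulated data. The p-values of this fit measure the spread between these animals pooled over the 3 groups, not within any 1 group. Array numbers run on within a group, so array order cannot be told apart from group.

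Members came from the annotation (8645 probes with 1 symbol, 105 with several, 5074 unnamed). Named besides them were the IGF ligands and receptors, other listed genes past the threshold or with all 9 SCNT and IVF-ET animals on 1 side (up to 4 per list), and the genes with the highest Pearson r (8 for IGFBP6, 2 for others). Stromal and epithelial markers are named where they passed. Members and lists were chosen with earlier results of these data known. The alternatives tried covered the reading and dye correction, centring, scaling, single spots, groups fitted alone, the left-out animal, the AI sign, arrays as units, missing values and single animals left out. The pairs of members under the dye-ratio reading were added after seeing the data.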

Additional observations from a re-analysis of the deposited data

Results flagged for a closer look

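Of 21 checks of the 7 IGFBP probes within the 3 groups, 3 found 1 animal far from the others; chance flags about 1 in 20 such groups. IGFBP2 in SCNT replicate 5 had a log2 ratio of -3.57, and IGFBP5 in AI replicate 3 had 0.41. IGFBP6 in IVF-ET replicate 5 had -0.81, where the other IVF-ET animals lay between -0.33 and -0.30. The IGFBP6 ratio also differed between SCNT and AI animals by -1.66 (limma adjusted p = 0.0418), and by -1.05 with the AI sign turned (adjusted p = 0.763).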

How the results depend on the processing

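The reading of the ratio mattered most. Read as dye ratios, the counts of probes past the threshold were 0 (SCNT), 1 (IVF-ET), 357 (AI), 0 (SCNT minus AI) and 0 (IVF-ET minus AI), and IGFBP6 gave 0.37 in SCNT and 0.18 in SCNT minus AI (limma adjusted p = 0.427 and 1.000). Groups fitted alone gave 74, 105, 10 (SCNT minus AI) and 18 (IVF-ET minus AI) probes, with IGFBP6 at -1.35 (adjusted p = 0.161) and -1.66 (0.120). IVF-ET replicate 3 kept with its second array turned gave 0 in SCNT, SCNT minus AI and IVF-ET minus AI, with IGFBP6 at -1.35 (0.0950) and -1.66 (0.179). With its first array turned, 78 probes passed in IVF-ET and 33 in IVF-ET minus AI, and the SCNT count was not reduced. The AI sign turned gave 0 in both differences from AI, and IGFBP6 at -1.05. Arrays with the animal as a random block gave 519, 33, 300 and 24 probes. Scaled arrays gave 0 in IVF-ET minus AI. The main counts were 252, 0, 0, 131 and 8 (SCNT, IVF-ET, AI, SCNT minus AI, IVF-ET minus AI). Leaving out 1 animal gave 2 (without SCNT replicate 1) to 325 in SCNT, 0 to 21 (without SCNT replicate 5) in IVF-ET, 5 (without AI replicate 3) to 269 (without AI replicate 1) in SCNT minus AI and 0 to 37 (without SCNT replicate 5) in IVF-ET minus AI, and IGFBP6 from -1.64 to -0.99 in SCNT and from -1.95 to -1.30 in SCNT minus AI. Over all 14 animals IGFBP6 minus IGFBP1, IGFBP4 and IGFBP5 was -0.86, -0.43 and -0.40. Leaving out 1 of the 9 animals, IGFBP6 minus IGFBP2 was -0.61 (without SCNT replicate 5) to -0.35, and IGFBP6 minus IGFBP3 was -0.63 (without IVF-ET replicate 2) to -0.24 (without SCNT replicate 5), the latter passing in none. Read as dye ratios, chosen after seeing the data, IGFBP6 minus IGFBP1, IGFBP2, IGFBP4 and IGFBP5 was 0.13, 0.29, 0.087 and 0.11. The cause of these changes was not tested, beyond the fewer animals. No paired analysis was possible because replicate numbers name different animals in each group; the ratio is already within an animal. Signal over background is unknown, as no spot intensities were used.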
